A study of Caenorhabditis elegans with 2 samples.

Results

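The proteasome is the protease that takes apart proteins marked with ubiquitin. Its core particle is a barrel made of outer alpha rings, which gate the entrance, and inner beta rings, which hold the catalytic sites; the regulatory particle caps the barrel, with a base of ATPases and scaffold proteins that unfold and thread the substrate and a lid that removes the ubiquitin chain. In Caenorhabditis elegans the alpha subunits are encoded by pas genes, the beta subunits by pbs genes, the ATPases by rpt genes and the other regulatory subunits by rpn genes, and the subunit roles given here are known mainly from yeast and mammals. All 33 protein-coding genes with such a name followed by a digit were taken, of 19985 protein-coding genes in the Ensembl annotation of WBcel235, the same assembly as ce11. They were chosen by name and not by any measured value, though with earlier results of these data known. Of them, 14 encode the core particle (7 pas and 7 pbs genes) and 19 the regulatory particle (6 rpt and 13 rpn genes).

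The data are ChIP-seq peak lists for VAB-15, an Msx-class homeodomain protein, from 1 group of 2 biological replicates. Whole worms of strain XIL99 were used, of mixed sex, at the L1 stage and starved after bleaching. The line carries GFP-FLAG fused to the C terminus of VAB-15 from a CRISPR insertion at vab-15, and an anti-GFP antibody recovered the chromatin. No untagged strain, other stage or treatment is among the samples, and a control experiment named in the labels was not analysed here. In extracts of whole larvae, strong binding in few cells and weak binding in many cannot be told apart. Each list gives the authors' own signal per region, which ranks regions within that list; depth per sample is unknown. A region was given to a gene when its summit lay within 2000 bp of any of the gene's transcript starts (TSS), so 1 region can count for several genes. The pooled list holds 30000 regions, peaks and background together. Its 990 strongest are the authors' optimal set, with signals from 108 to 1191.

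Of the 33 proteasome genes, 8 had an optimal-set peak within 2000 bp, a share of 24.2%, where 6.61% of all protein-coding genes had one. The summits of 5 of these peaks lie on sequence that can be shown, read 5′ to 3′ on the strand of the proteasome gene from the WBcel235 reference. They are given to show the sequence at these summits, and were not chosen by strength among the 8: the windows of pbs-2, pbs-3 and pas-4 are not shown. Capitals mark the 11 bases centred on the summit. The windows reach 50 bases to each side of the summit (for rpn-11 they end where the annotated transcript begins) and lie at chrII:4698432-4698532 for rpn-5, chrIII:12369107-12369207 for rpt-6, chrV:14423371-14423471 for pas-1, chrIII:8447119-8447219 for rpn-3 and chrII:4044547-4044633 for rpn-11. The rpt-6 and rpn-3 windows read the plus strand and the other 3 the minus strand.
rpn-5: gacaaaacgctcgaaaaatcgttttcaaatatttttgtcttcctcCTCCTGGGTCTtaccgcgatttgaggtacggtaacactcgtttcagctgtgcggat
rpt-6: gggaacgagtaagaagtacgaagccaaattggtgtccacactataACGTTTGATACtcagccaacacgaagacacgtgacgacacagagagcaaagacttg
pas-1: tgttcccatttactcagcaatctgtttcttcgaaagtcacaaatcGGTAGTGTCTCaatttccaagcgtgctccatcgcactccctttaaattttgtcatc
rpn-3: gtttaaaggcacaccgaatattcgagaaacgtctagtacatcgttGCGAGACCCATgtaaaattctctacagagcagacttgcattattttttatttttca
rpn-11: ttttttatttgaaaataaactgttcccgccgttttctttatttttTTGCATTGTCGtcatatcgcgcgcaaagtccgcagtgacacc

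Among core particle genes 4 of 14 had an optimal-set peak, and among regulatory particle genes 4 of 19. By subcomplex the count was 2 of 7 in the alpha ring, 2 of 7 in the beta ring, 1 of 10 in the base (the 6 ATPases with rpn-1, rpn-2, rpn-10 and rpn-13) and 3 of 9 in the lid. No subcomplex was without a peak. Every member had at least 1 region of the pooled list within reach, against 62.8% of all protein-coding genes. Members had 1 to 6 regions per gene and a median of 3, against 0 to 20 and a median of 1 over all protein-coding genes. The members' 114 regions were each near a single member, so no value is counted for 2 members. At a deposited q-value at or under 0.01, 17 of 33 members had a region, 8 in the core and 9 in the regulatory particle, against 11.9% of all genes.

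The strongest region near any member was that of pbs-2 (chrI:12966868-12967014), which encodes the beta subunit with trypsin-like activity. Its signal was 268 in the pooled list, where it ranked 70, and 199 in replicate 1 (rank 60) and 69.8 in replicate 2 (rank 148). Signals of the 2 replicates are on different scales, so ranks are the values to compare. The summit lay 1343 bp downstream of the pbs-2 TSS, beyond the 3′ end of the gene, and 142 bp upstream of tba-2, an alpha tubulin gene.

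Next among the core particle genes was pbs-3 (region chrII:4955353-4955728), which encodes a noncatalytic beta subunit. Its region had a pooled signal of 158 (rank 383), with 105 in replicate 1 (rank 454) and 50.1 in replicate 2 (rank 474), so both replicates placed it alike. The summit was 114 bp upstream of the pbs-3 TSS, inside an exon outside the coding sequence of ulp-2, a SUMO protease gene that ends 23 bp before pbs-3 on the same strand.

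The alpha subunit gene pas-4 had a region at chrI:8728426-8728801 of signal 151 (rank 433), with 95.6 in replicate 1 (rank 583) and 58.9 in replicate 2 (rank 271). Its summit was 127 bp upstream of pas-4 and 150 bp upstream of rpb-3, an RNA polymerase II subunit gene that is transcribed the other way from the same interval. For pas-1, another alpha subunit gene (region chrV:14423233-14423608), the pooled signal was 144 (rank 491), with 92.9 in replicate 1 (rank 628) and 51.5 in replicate 2 (rank 429). That summit was 803 bp upstream of pas-1 and closer to rpoa-12, an RNA polymerase I subunit gene on the same strand, 117 bp upstream of its TSS. All 4 core particle peaks therefore lay among the 990 strongest regions of each replicate, and 2 of the 4 had the TSS of another gene closer than that of the member.

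In the regulatory particle rpn-5, a lid gene (region chrII:4698294-4698669), came first, with a pooled signal of 159 (rank 373). It had 117 in replicate 1 (rank 328) and 46.8 in replicate 2 (rank 562). The summit was 55 bp upstream of the rpn-5 TSS and 239 bp upstream of that of scc-1, a cohesin gene that starts in the opposite direction. The interval between the genes measures 294 bp, and the summit lies between both starts.

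The ATPase gene rpt-6 had a region at chrIII:12368969-12369344 of signal 150 (rank 440), at 87.5 in replicate 1 (rank 718) and 64.7 in replicate 2 (rank 193). This summit was 1299 bp upstream of rpt-6 and 107 bp upstream of his-72, a gene for the histone variant H3.3. A weaker region lay nearer, 252 bp upstream of rpt-6, with a signal of 101.1 (rank 1199) that placed 2156 in replicate 1 and 889 in replicate 2. With the nearest TSS as the only criterion the optimal-set peak would go to his-72, and rpt-6 would have none.

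The lid gene rpn-3 had 6 regions, the strongest (chrIII:8446981-8447356) of signal 137 (rank 568). It had 99.8 in replicate 1 (rank 526) but 30.7 in replicate 2 (rank 2273). The summit sat between rpn-3, 184 bp away, and hsp-110, a chaperone gene whose TSS was 260 bp away on the other side. The last optimal-set peak was that of rpn-11, the lid gene for the deubiquitinating enzyme, with a signal of 114 (rank 877) at chrII:4044395-4044770 and a summit 37 bp upstream of the TSS. It had 96.9 in replicate 1 (rank 564) and 27.0 in replicate 2 (rank 3639). Both of these lid peaks were thus among the 990 strongest regions of replicate 1 and not of replicate 2.

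**Figure D1:**
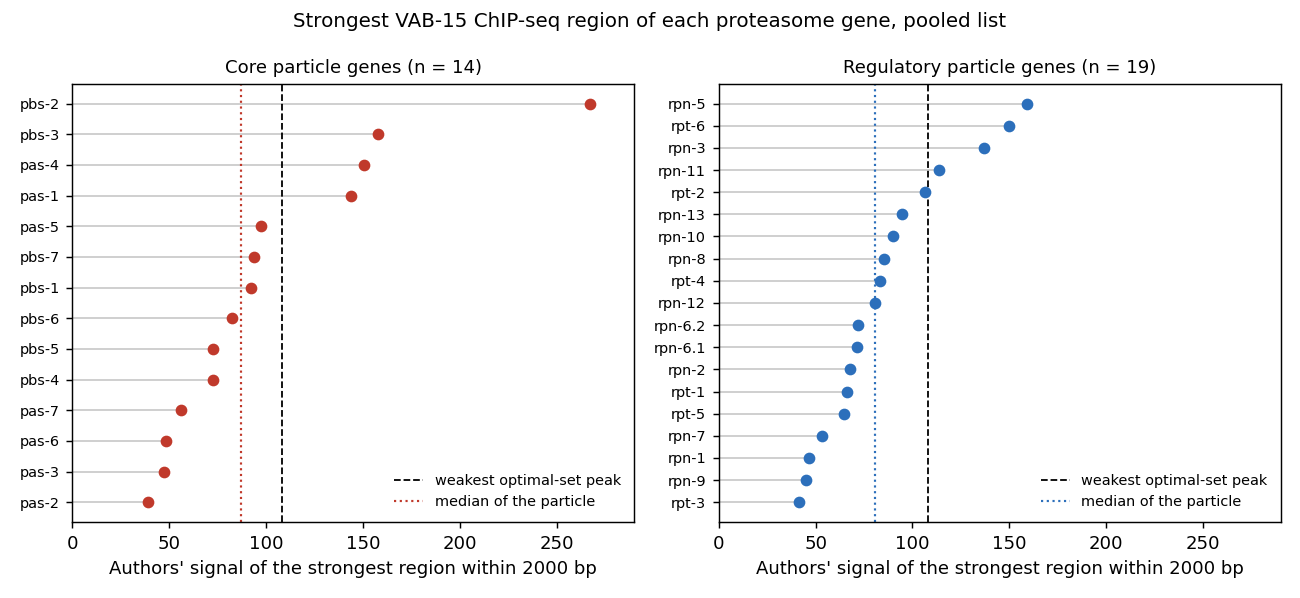
Signal of the strongest region within 2000 bp of each core particle gene (left, n = 14) and regulatory particle gene (right, n = 19) in the pooled list, in the authors' units. The dashed line is the weakest optimal-set peak (108), the dotted lines are the medians (87.3 and 80.8), and 4 genes in each panel lie past the dashed line.

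The members whose strongest region came next fell just outside the optimal set, whose weakest signal was 108. They were rpt-2, an ATPase gene (signal 106, rank 1036), pas-5, an alpha subunit gene (97.6, rank 1317) and rpn-13, the gene of a ubiquitin receptor (94.7, rank 1444). In replicate 1 the rpt-2 region ranked 879, that of pas-5 1194 and that of rpn-13 918. In replicate 2 they ranked 6021, 3624 and 23947, so all 3 stood lower in replicate 2 than in replicate 1. The strongest signals of rpn-11, at 114, and rpt-2, at 106, lay close together, and the division into members with and without a peak is that of the list threshold.

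The catalytic beta subunits differed in where they stood. Apart from pbs-2, the gene pbs-1, of caspase-like activity, had a region of signal 92.1 (rank 1561) 199 bp upstream of its TSS, and pbs-5, of chymotrypsin-like activity, a region of 72.8 (rank 3118) 1752 bp upstream and 250 bp from the TSS of K05C4.2. The remaining beta genes pbs-7, pbs-6 and pbs-4 had signals of 93.7, 82.5 and 72.7. All 7 beta ring genes ranked at 3129 or higher. The alpha ring was more spread in rank, from 433 to 17512. Beside pas-4, pas-1 and pas-5, the genes pas-7 (56.3), pas-6 (48.2), pas-3 (47.2) and pas-2 (38.9) had the lowest signals of the core particle. The median rank was 6541 in the alpha ring against 1561 in the beta ring. The 7 genes of each ring overlapped in signal, from 38.9 to 151 in the alpha ring and from 72.7 to 268 in the beta ring, the wider range.

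In the base, the ubiquitin receptor gene rpn-10 had a region of signal 89.7 (rank 1680) in an intron of kin-3, a casein kinase subunit gene, 1743 bp upstream of rpn-10. It ranked 571 in replicate 2 and 3473 in replicate 1, the only strongest region of a member among the 990 of replicate 2 and not of replicate 1. The ATPase genes rpt-4 (83.1), rpt-1 (66.1), rpt-5 (64.7) and rpt-3 (41.3) had no peak, nor had the scaffold genes rpn-2 (67.9) and rpn-1 (46.7). In the lid, rpn-8 (85.5), rpn-12 (80.8), rpn-7 (53.4) and rpn-9 (45.0) were also under the optimal set. The paralogues rpn-6.1 and rpn-6.2 had nearly equal pooled signals, 71.6 and 72.0. The strongest rpn-6.1 region ranked 680 in replicate 1 and was in no region of the replicate 2 list. Another rpn-6.1 region, 345 bp downstream of the TSS, ranked 1301 in replicate 2. That region had a pooled signal of 48.3 (rank 10038) and was in no region of the replicate 1 list. The strongest rpn-6.2 region ranked 6807 in replicate 1 and 1559 in replicate 2. The ranks in replicate 2 thus belong to a weaker rpn-6.1 region and to the strongest rpn-6.2 region. In worms, raised expression of rpn-6.1 is known to increase proteasome activity.

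The median signal of the strongest region was 87.3 over the 14 core particle genes and 80.8 over the 19 regulatory particle genes, against 50.2 over the 12547 protein-coding genes with a region. The median ranks were 1855 and 2310, against 9029. The signals overlapped over most of their range, from 38.9 to 268 in the core and from 41.3 to 159 in the regulatory particle. The order of the medians depended on the distance allowed: within 500 bp of a TSS the core median was 56.3 and the regulatory median 82.0, and within 1000 bp they were 66.5 and 72.0. It also turned where a summit went to its nearest TSS only (64.5 and 72.0). In the list of replicate 2 alone the medians were both 27.0, and in that of replicate 1 they were 66.2 and 59.5. No test was made between the particles, because members are genes of 1 group and not replicates.

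**Figure D2:**
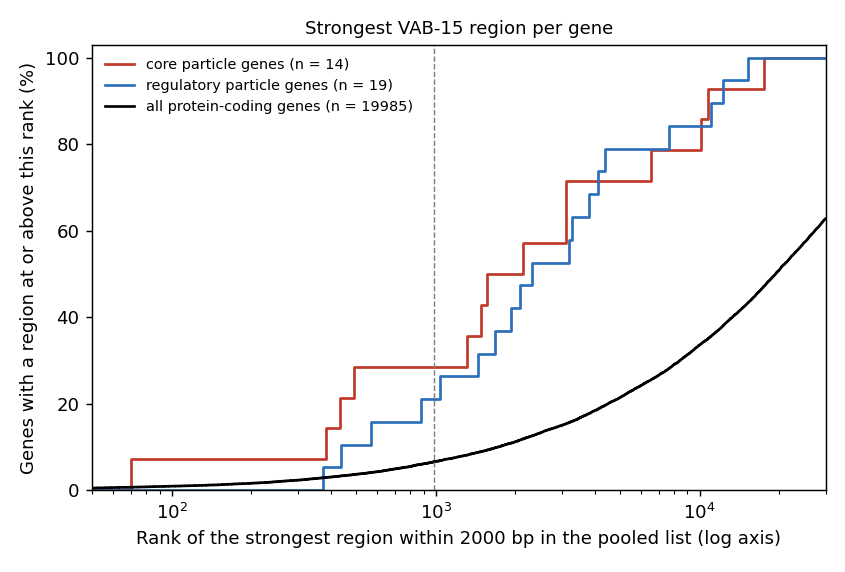
Cumulative share of genes (vertical axis, %) whose strongest region within 2000 bp ranks at or above the value on the horizontal log axis, for core particle genes, regulatory particle genes and all 19985 protein-coding genes. The dashed line is rank 990, where the shares are 28.6%, 21.1% and 6.61%; the 2 particle curves cross several times.

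Replicates shared the core particle peaks and not all of those in the regulatory particle. In the 990 strongest regions of replicate 1, 11 of 33 members had a region (4 core and 7 regulatory), against 6.57% of all genes. In those of replicate 2 it was 7 (4 core and 3 regulatory), against 6.13%. Optimal-set peaks with their summit in the 990 strongest regions of both replicates were near 6 members, against 3.83% of all genes: pbs-2, pbs-3, pas-4, pas-1, rpn-5 and rpt-6. The regulatory genes found with replicate 1 alone were rpn-3, rpn-11, rpt-2, rpn-13 and rpn-6.1. Of the strongest pooled regions of the 33 members, 32 lay in a region of the replicate 1 list and 25 in one of the replicate 2 list, with median ranks of 1656 and 6021. Where both lists held the region the rank was higher in replicate 1 for 18 of 24 members. The same values were not computed over all genes, so whether this difference is particular to the members was not tested.

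**Figure D3:**
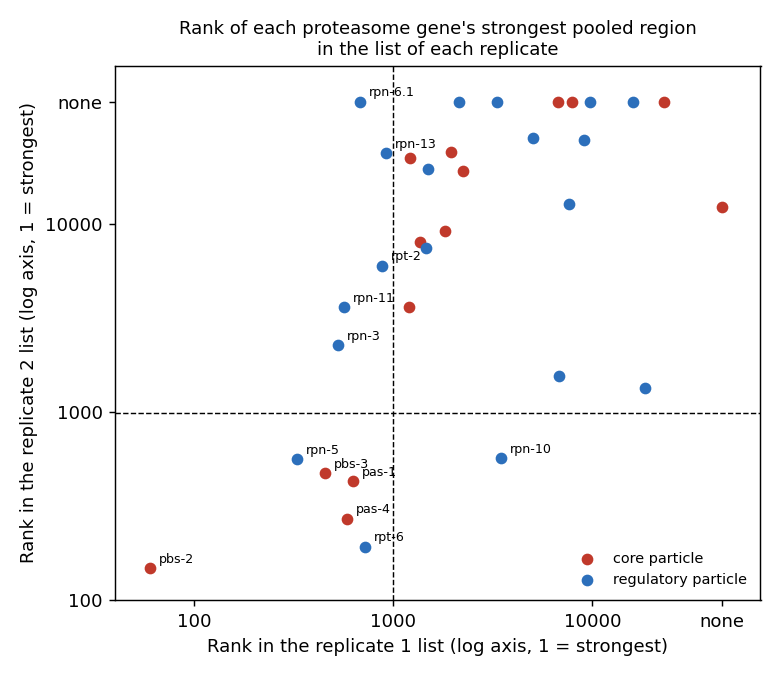
Rank of the region that holds each member's strongest pooled summit in the list of replicate 1 (horizontal log axis) and replicate 2 (vertical log axis), where 1 is strongest and "none" means that no region of that list holds the summit. Dashed lines mark rank 990; 6 members lie below both lines, 4 of them core particle genes.

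Most of the strongest regions were upstream of the gene. Of 33, 23 had the summit upstream of the closest TSS of the member (69.7%, against 57.0% of all protein-coding genes with a region). They were 8 of 14 in the core (57.1%) and 15 of 19 in the regulatory particle (78.9%), so the core share was near that of all genes. The median distance was 321 bp, against 822 bp over all genes, and 14 of 33 lay upstream within 500 bp (42.4%, against 20.9%). By subcomplex the median distance was 199 bp in the beta ring, 242 bp in the lid, 803 bp in the alpha ring and 817.5 bp in the base. Within 500 bp of a TSS lay 8 of 9 strongest summits in the lid, 4 of 7 in the beta ring, 3 of 7 in the alpha ring and 4 of 10 in the base, against 35.5% over all genes. By annotation 15 of the 33 summits were intergenic, 10 in coding exons, 4 in introns, 2 in other exon sequence and 2 in noncoding genes. Coding exons held 7 of the 19 regulatory and 3 of the 14 core particle summits, of which those of rpt-1, rpt-4, rpn-2, rpn-6.2, pas-2 and pbs-6 were within the member's own coding sequence. They held none of the 8 with an optimal-set peak. Annotation classes were not counted over all regions or all optimal-set peaks, so these counts describe the members only.

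**Figure D4:**
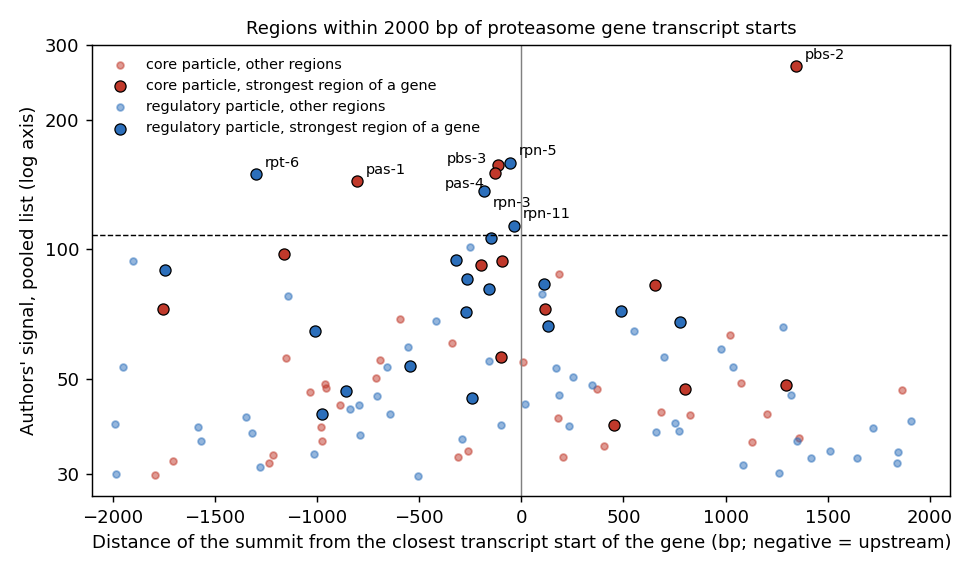
Distance of each summit from the closest TSS of the member (horizontal axis, bp, negative upstream) and the authors' signal in the pooled list (vertical log axis) for the 114 regions within 2000 bp of a proteasome gene. Large outlined points are the strongest region of each gene; the 8 named points above the dashed line (108, the weakest optimal-set peak) are the optimal-set peaks, of which 7 lie upstream.

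Proteasome genes often shared their upstream interval with another gene. For 20 of 33 members the next gene upstream was head to head and within 1000 bp (60.6%, against 17.5% of 19973 nuclear protein-coding genes), and for 9 it was on the same strand within 1000 bp (27.3%, against 28.5%). In the core particle the head-to-head count was 9 of 14 and in the regulatory particle 11 of 19. Among all genes, 13.9% of those with a head-to-head neighbour within 1000 bp had an optimal-set peak, 5.37% of those with a same-strand neighbour and 4.90% of the rest. Among members the counts were 4 of 20, 3 of 9 and 1 of 4. The head-to-head share was the lowest there, on counts too small to put the classes in order. These classes describe the interval upstream of the gene and not the place of the peak. The pbs-2 peak, counted as head to head, lay beyond the 3′ end of the gene. The 1 of 4 was rpt-6, whose head-to-head neighbour his-72 was 1406 bp away. The share in all genes was higher in the arrangement that most members have, and its part in the members' count was not tested. Another gene had a TSS within 2000 bp of the summit for 30 of the 33 strongest regions, and for 22 of the 33 the member's TSS was the nearest. Neither count has a share over all genes beside it, so both describe the members only. When each summit went to its nearest TSS only, 5 members kept an optimal-set peak (rpn-5, pbs-3, pas-4, rpn-3 and rpn-11), against 3.88% of all genes.

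Members lie on every autosome and 0 of the 33 on the X chromosome, so signal there enters none of the members' values. Chromosome I carries most, 10, and chromosome IV fewest of the autosomes, 3.

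Sequence words were searched on both strands within 50 bases of each summit. The homeodomain core TAATTG was in 0 of the 8 optimal-set windows of members and in 1 of the 33 windows at their strongest regions (pbs-5), against 10.4% of all 990 optimal-set peaks and 7.09% of the 30000 regions. The word GAGCGC was in 0 of the 8 and in 4 of the 33 (12.1%), against 15.8% and 2.77%. The word ACGCAG was in 1 of the 33 (rpn-9), against 13.6% and 3.77%, and GAGACGCAG, which contains it, in 0 of the 33, against 7.07% and 1.24%. With 8 windows, a count of 0 says little about words held by few peaks. The GC content of the windows averaged 43.1% in the 8 and 42.5% in the 33, against 46.3% over all optimal-set peaks and 41.3% over all regions.

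The transcription factor SKN-1 raises proteasome gene expression in worms when proteasome function is low, and the inner letters of its site were searched too. TGTCAT was in 4 of the 33 windows (pas-1, rpt-2, rpn-12 and rpn-6.2; 12.1%, against 5.61% of all regions and 5.25% of optimal-set peaks), and TATCAT in 1 (rpn-6.1; 3.03%, against 5.96% and 4.24%). A match is a description of the letters and not of a bound site.

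The 4 windows with GAGCGC were those of rpt-2, pas-5, pbs-7 and pbs-1, at ranks 1036, 1317, 1486 and 1561, just under the optimal set. The word began 13 bases downstream of the summit in both rpt-2 and pbs-1 and 20 bases upstream of it in pbs-7, on the strand of the gene each time. In pas-5 it was on the other strand, 31 to 36 bases downstream. The windows of rpt-2, at chrV:6017767-6017867, and pbs-1, at chrIV:1709894-1709994, are given on the minus strand, which is that of both genes, with the word in capitals, because they show its place beside the summit at the 51st base.
rpt-2: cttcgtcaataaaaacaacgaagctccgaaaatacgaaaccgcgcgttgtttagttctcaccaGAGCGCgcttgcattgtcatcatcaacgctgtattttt
pbs-1: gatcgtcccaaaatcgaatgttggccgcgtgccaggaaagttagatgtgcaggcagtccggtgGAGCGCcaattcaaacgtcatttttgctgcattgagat

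Genes that work with the proteasome, a list of 16 chosen by name, had optimal-set peaks at 3 members (18.8%, against 6.61% of all protein-coding genes). In the 990 strongest regions of replicate 1 the count was 1 (ubql-1; 6.25%, against 6.57% of all genes), so no excess over all genes was seen there. In those of replicate 2 it was 2 (12.5%, against 6.13%): ubql-1 and the polyubiquitin gene ubq-1, which had no optimal-set peak. Of the 3 optimal-set peaks, 0 reached the median signal of that set. ubql-1, which encodes a ubiquilin that delivers ubiquitinated proteins, had a signal of 143 (rank 502), 477 bp upstream of its TSS, and ranked 808 in replicate 1 and 425 in replicate 2. ubh-4, a deubiquitinating enzyme of the regulatory particle, had 111 (rank 933), 15 bp downstream of its TSS, with replicate ranks of 1114 and 1115. aip-1, an AN1-type zinc finger gene induced by arsenite, had 109 (rank 981), 79 bp upstream of its TSS, with replicate ranks of 1715 and 1572. Of these 3 peaks, that of ubql-1 was among the 990 strongest regions of both replicates.

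Below the optimal set, the polyubiquitin gene ubq-1 had a signal of 99.9 (rank 1235) and skn-1 itself 91.3 (rank 1594). rad-23, which encodes a shuttle for ubiquitinated proteins, had 80.8 (rank 2310): this is the same region as that of rpn-12, since both genes start from 1 interval of 395 bp in opposite directions. It ranked 2145 in replicate 1 and was in no region of the replicate 2 list. ubq-2 (76.4), psmd-9 (59.1) and usp-14 (50.2) followed. The other parts of the SKN-1 response to low proteasome function, sel-1 (40.7), ddi-1 (40.6), sel-11 (37.5) and png-1 (29.5), and the ubiquitin-activating enzyme gene uba-1 (30.7), were at 15839 or lower in rank. dss-1, a small lid subunit outside the naming rule, and psme-3, a proteasome activator gene, had no region within 2000 bp. The median signal over the 14 with a region was 67.8, against 50.2 over all genes with one.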

How the data were processed

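Peak lists of 2 biological replicates on ce11 were used. The authors' signal value per region and the deposited -log10 q-value were taken as they stand. Per the notes deposited beside the files, a control alignment entered the calling and the optimal set was made from both replicates (IDR). Aligner, peak caller and thresholds: not given in the sources used here. The pooled list and that of each replicate hold 30000 regions, background included, and signal was used only to rank or describe regions within a list.

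Summits (start plus offset) were assigned to every protein-coding gene with a transcript start within 2000 bp (Ensembl release 115). A summit was matched to the strongest region of a replicate list that holds it. Windows reaching 50 bp to each side of a summit came from RefSeq's WBcel235 genome. Calls were counted against all 19985 protein-coding genes. With 1 group no contrast exists, so no test was made, and genes are not replicates.

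Named in full are members with an optimal-set peak, the 3 highest of each particle and the 3 just outside the set; other members have their signal given. Members and lists were chosen with earlier results of these data known. Assignment was tested on simulated data. Alternatives changed distance, TSS, replicate, threshold and window. Python 3.11.15, pandas 2.3.3 and matplotlib 3.10.9 were used. The ce10 lists were not used here. For chromosome I and annotated UTRs no sequence is shown.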

Additional observations from a re-analysis of the deposited data

How the results depend on the processing

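All 33 members had a region of the pooled list within 2000 or 1000 bp and with the outermost TSS only; it was 29 within 500 bp and 31 with the nearest TSS only. All 33 also had a region in the list of either replicate alone. Of these region counts, only that within 2000 bp of the pooled list has a share of all genes beside it, 62.8%. The others cannot be read against all genes. No paired analysis was possible because the series has 1 group. The count of members with an optimal-set peak, 8, was 5 within 500 bp, 5 with the nearest TSS only, 17 for regions with q at or under 0.01 and 5 where the strongest summits of both replicates lay within 100 bp. No share of all genes was computed for the 500 bp and 100 bp settings, nor for the counts below with only peaks of at least the median signal. Counts in these settings cannot be read against all genes. Without replicate 1 it was 7 and without replicate 2 it was 11. The core count, 4, was 2 within 500 bp, 2 with the nearest TSS only and 8 at q of 0.01 or under, and 4 without either replicate. The regulatory count, 4, was 3 without replicate 1 and 7 without replicate 2; it was 2 with only peaks of at least the median signal, 9 at q of 0.01 or under, and 2 in the strongest regions of both replicates by either overlap rule. The partner count, 3, was 2 without replicate 1 (ubql-1 and ubq-1, the latter with no optimal-set peak) and 1 without replicate 2 (ubql-1). It was 0 with only peaks of at least the median signal, 5 at q of 0.01 or under and 1 by either overlap rule. The core median signal, 87.3, was 56.3 within 500 bp; leaving out a replicate put it at 27.0 to 66.2, and the regulatory median at 27.0 to 59.5, on the scale of the list left. The causes were not tested. In windows reaching 100 or 25 bp to each side in place of 50, TAATTG was in 4 or 0 of the 33 and TGTCAT in 7 or 1. For TAATTG these are 12.1% or 0%, against 13.5% or 3.5% of all regions. For TGTCAT they are 21.2% or 3.03%, against 10.9% or 2.63%, so within 25 bp TGTCAT was near the share of all regions. Depth per sample is unknown, so no counting error could be given.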
